A study of Mus musculus with 8 samples.

Results

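The genes of creatine synthesis, uptake and use were followed in pancreas from mice with a tamoxifen-inducible deletion of Sel1L, an adaptor of the Hrd1 ubiquitin ligase that clears misfolded proteins from the endoplasmic reticulum (ER). The 5 genes were Gatm, Gamt, Slc6a8, Ckb and Ckmt1, out of 18820 genes measured with a symbol of their own. Each was read by 1 array feature that the platform annotation ties to that gene alone. The set was selected on the knockout against wild type difference of Gatm and Gamt, the genes of both synthesis steps, which were lower in the knockout. The values of all 5 between the groups are therefore given as a description, with no test.

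RNA of 4 wild type and 4 Sel1L knockout pancreas samples was profiled on 8 whole-transcript arrays. Per the labels, mice of both groups were Sel1Lflox/flox, with loxP sites around exon 6, on the C57BL/6J background (the embryonic stem cells came from C57BL/6N). Knockout mice were fl/fl;ERCre+, carrying an estrogen receptor-Cre fusion under an actin promoter, and the controls labelled wild type were their fl/fl;ERCre- littermates. All were injected with tamoxifen (5 mg/ml in oil, 5 μl per g) on 3 consecutive days at an age of 8 to 20 weeks, and the sources used here do not give the time from injection to tissue collection. The actin promoter is not limited to pancreas and the controls lacked Cre, so loss of Sel1L in pancreas, its loss elsewhere and the activity of Cre cannot be told apart. The sample descriptions hold letter codes, A to D in wild type and E to H in knockout; their meaning is not stated, and if they are array positions, position and genotype cannot be told apart either. The labels do not say that replicate numbers are separate animals, so p-values cover the spread among these samples alone, and that spread may be technical.

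Creatine carries phosphate between the sites where ATP is made and those where it is spent. Its synthesis starts in mitochondria, where Gatm (arginine:glycine amidinotransferase) moves the amidino group of arginine onto glycine, giving guanidinoacetate and ornithine. In the cytosol, Gamt (guanidinoacetate N-methyltransferase) adds a methyl group from S-adenosylmethionine. Slc6a8 is the sodium- and chloride-dependent creatine transporter of the plasma membrane. Creatine kinases then make and use phosphocreatine, Ckb in the cytosol and Ckmt1 between the mitochondrial membranes. Pancreas is, with kidney, a known site of the first step, and the acinar cell also makes large amounts of secreted protein.

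The values were log2 RMA signals, on which a difference of 1 is a 2-fold change. Array medians over all features lay between 4.94 and 5.05 and array maxima between 14.29 and 14.37. Sel1l lay between 12.37 and 12.39 in wild type and between 11.45 and 11.70 in knockout arrays, a difference of -0.76 (SE 0.0788, limma adjusted p = 0.000196). Where the probes of its feature lie relative to the floxed exon was not examined. Of all genes, 28.7% passed an adjusted p of 0.05 (5406 of 18820), 12.6% lower and 16.1% higher in the knockout. In 32.2% the groups did not overlap, and in 14.6% all knockout arrays lay below all wild type arrays.

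The first synthesis gene, Gatm, was at 12.72, 12.54, 12.52 and 12.62 in wild type replicates 1 to 4. In knockout replicates 1 to 4 it was at 11.56, 11.67, 11.34 and 11.37. Every knockout array was below every wild type array, and the gap of 0.86 between the groups was wider than the range within either (0.20 and 0.33). The mean went from 12.60 ± 0.0901 to 11.48 ± 0.156 (SD, n = 4 each), a difference of -1.12 (SE 0.0961), so the linear signal was 46.0% of the wild type mean.

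The methyltransferase gene Gamt was at 11.94, 12.01, 11.81 and 12.00 in the wild type arrays. The 4 knockout arrays read 10.84, 10.91, 10.79 and 10.98. Again the groups were apart, by 0.84, with ranges of 0.20 and 0.19 inside them. The mean went from 11.94 ± 0.0904 to 10.88 ± 0.0831 (SD, n = 4 each), a difference of -1.06 (SE 0.0807), or 47.8% of the wild type signal. Centring each array on its median, which moved the median difference of all genes from -0.04 to -0.14, put Gamt at -1.17 and Gatm at -1.23.

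Among all 18820 differences ordered from the most negative, Gatm was number 125 and Gamt number 143, against 322 for Sel1l. A more negative difference than that of Gatm was seen in 0.659% of genes, and one more negative than that of Gamt in 0.755%. Gatm and Gamt were picked on these same differences, so their ranks are a description. In bulk tissue, fewer cells of a type and less RNA per cell cannot be told apart. Among the 5 genes, these were the 2 whose groups did not overlap, and since both were picked for their fall, nothing is read from that count against the 32.2% of all genes.

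**Figure D1:**
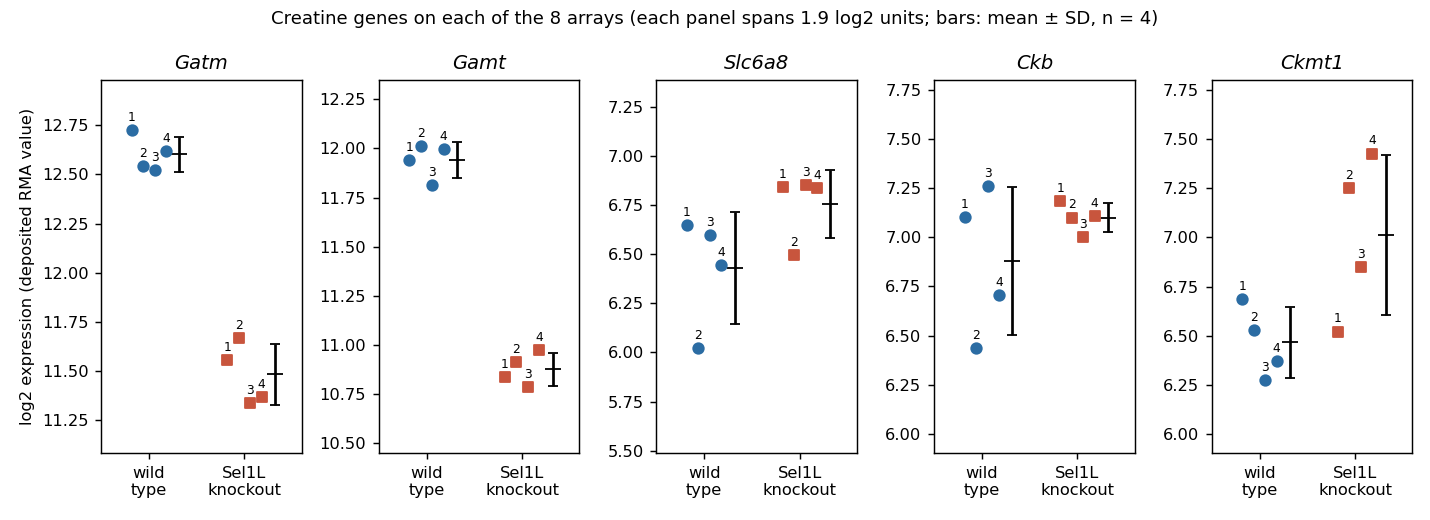
Log2 expression of Gatm, Gamt, Slc6a8, Ckb and Ckmt1 on each array, wild type as circles and Sel1L knockout as squares, numbered by replicate, with the mean ± SD of each group (n = 4) at its side. The groups are separate for Gatm and Gamt and overlap for the other 3 genes, each panel covering the same span.

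The stretches before the start sites of Gatm and Gamt are shown because these genes were the 2 that lay lower together. They are the 250 bases upstream of the RefSeq start (build GRCm38.p6), 5′ to 3′ on the gene's strand, Gatm at chr2:122611278-122611527 and Gamt at chr10:80261013-80261262, both on the minus strand. Capitals mark every match to a motif searched on both strands.
Gatm: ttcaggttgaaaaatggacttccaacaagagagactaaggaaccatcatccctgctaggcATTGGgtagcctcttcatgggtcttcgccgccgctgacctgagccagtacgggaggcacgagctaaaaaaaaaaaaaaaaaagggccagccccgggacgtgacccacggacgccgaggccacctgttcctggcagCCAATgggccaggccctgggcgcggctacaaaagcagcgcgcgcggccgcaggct
Gamt: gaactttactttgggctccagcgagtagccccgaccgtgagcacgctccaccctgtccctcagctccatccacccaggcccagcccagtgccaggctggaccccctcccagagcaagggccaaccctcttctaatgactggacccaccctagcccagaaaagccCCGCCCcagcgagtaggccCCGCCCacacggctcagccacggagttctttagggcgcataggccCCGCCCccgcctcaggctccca

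The Gatm stretch held the CCAAT box (CCAAT) at 55 to 51 bases before the start and, on the other strand, at 190 to 186. A CCAAT match was found in 33.8% of the 32851 upstream stretches of the same length in the table. The Gamt stretch held the GC box (GGGCGG) on the other strand 3 times, starting 86, 67 and 22 bases before the start, and 32.7% of all stretches held that motif. The 2 stretches shared no motif of those searched, and both were richer in G and C (59.2% for Gatm and 66.8% for Gamt) than the median stretch (52.4%).

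Neither stretch matched the C/EBP-ATF response element core TGATGNAA (found in 3.45% of all stretches), the ER stress response element (CCAAT and CCACG 9 bases apart, in 0.113%, a motif that contains CCAAT) or the UPR element core TGACGTG (1.65%). Nor did either match the E-box CAGCTG (13% of stretches), the Nr5a2 site core CAAGGNCA (5.53%) or TATAAA (12.4%). No match says only that these letters are not in this window. The table held 4 of the 5 genes. Ckb, with 1 start, matched TATAAA 28 to 23 bases and CCAAT 46 to 42 and 16 to 12 bases before it. Ckmt1, with 2 listed starts, matched TATAAA (31 to 26 bases) and CAAGGNCA (171 to 164 bases) before the first and CCAAT (242 to 238 bases) before the second, all on the opposite strand.

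The transporter gene Slc6a8 was at 6.65, 6.02, 6.60 and 6.45 in wild type replicates 1 to 4. The knockout arrays read 6.84, 6.50, 6.85 and 6.83. Knockout replicates 1, 3 and 4 lay above every wild type array, while knockout replicate 2 lay among them. The difference was 0.33 (SE 0.146), from 6.43 ± 0.285 to 6.76 ± 0.173 (SD, n = 4 each), and 16.7% of all genes had a more positive one. It was 0.16 after quantile normalization, 0.18 after cyclic loess and 0.19 without wild type replicate 2.

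The cytosolic kinase gene Ckb was at 7.10, 6.44, 7.26 and 6.71 in the wild type arrays, a range of 0.82. The knockout arrays, at 7.18, 7.10, 7.00 and 7.11, spanned only 0.18 and lay within the wild type range. The means were 6.88 ± 0.375 and 7.10 ± 0.0740 (SD, n = 4 each), which gave a difference of 0.22 (SE 0.164), smaller than the spread of the wild type group. It was 0.05 after quantile normalization, 0.07 after cyclic loess, 0.11 after centring on the median and 0.07 without wild type replicate 2, the array with the lowest Ckb.

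That array also held the lowest Slc6a8 value, and its leukocyte and stellate cell marker lists stood apart. Its islet marker mean was the highest in wild type (8.78 against 7.43 to 8.22). Its muscle, adipocyte and endothelial means lay within the range of the other wild type arrays. The mean of 10 macrophage and other leukocyte markers was 5.85 there against 7.26 to 7.94 in wild type replicates 1, 3 and 4, and that of 7 stellate cell and fibroblast markers 7.12 against 8.33 to 8.72. In the knockout arrays these means were 6.78 to 7.70 and 8.01 to 8.84. Of these 10 and 7 markers 0 were called between the groups by limma, and 0 had an unadjusted p under 0.05. Without wild type replicate 2, 3 of the leukocyte and 1 of the stellate cell markers were lower in the knockout. Their part in the Slc6a8 and Ckb values was not tested.

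The mitochondrial kinase gene Ckmt1 was at 6.69, 6.53, 6.28 and 6.37 in wild type replicates 1 to 4. In the knockout it was at 6.52, 7.25, 6.85 and 7.43. Knockout replicates 2, 3 and 4 lay above every wild type array and knockout replicate 1 among them. The mean went from 6.47 ± 0.181 to 7.01 ± 0.407 (SD, n = 4 each), a difference of 0.55 (SE 0.187), with the wider spread in the knockout. It ranged from 0.41 to 0.71 when 1 array was left out, was 0.38 after quantile normalization and 0.39 after cyclic loess, and 7.23% of all genes had a more positive difference.

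**Figure D2:**
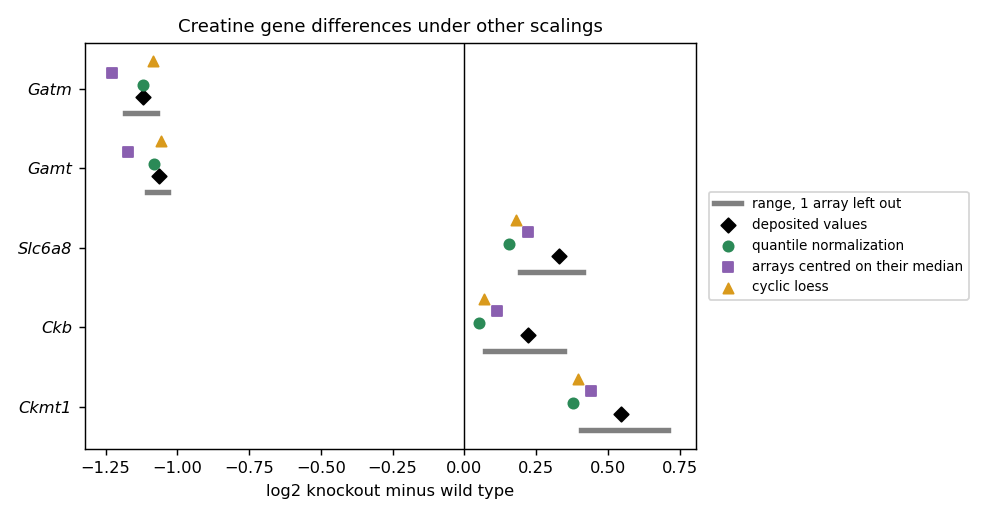
Difference of each creatine gene (log2 knockout minus wild type) on the deposited values and under 3 other scalings, with a grey bar for the range when 1 array at a time is left out. Gatm and Gamt stay below -1, while Ckb is at 0.05 after quantile normalization.

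The other creatine genes listed were Ckm (muscle creatine kinase), Ckmt2 (the mitochondrial kinase of striated muscle) and Slc16a12 (a transporter of creatine). Ckm was at 5.78, 5.63, 5.39 and 5.39 in wild type and 5.06, 5.21, 5.32 and 5.17 in knockout arrays, groups that were 0.06 apart. It fell by 0.35 (SE 0.108, limma adjusted p = 0.0359). It missed the threshold when any of 5 arrays was left out, namely wild type replicate 1 (limma adjusted p = 0.074) or 2 (0.0724) and knockout replicate 1 (0.0895), 2 (0.0716) or 4 (0.08), and with the replicate number as a block (0.0751). A second, dimmer Ckm feature averaged 4.15 in wild type and 3.68 in knockout, a difference of -0.47.

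Ckmt2 averaged 3.29 in wild type and 3.09 in knockout arrays, below every array's median, and did not pass the threshold (-0.20, SE 0.119, adjusted p = 0.222); its difference was -0.03 after quantile normalization and -0.04 after cyclic loess. Slc16a12 averaged 7.02 and 7.17 (0.15, SE 0.13, limma adjusted p = 0.406), a difference that was 0.04 after centring on the median and within 0.01 of 0, with the opposite sign, after quantile normalization and cyclic loess. Of 11 muscle markers, 10 lay below the median gene level, 2 were lower (Tnnt3 and Ttn) and 1 higher (Cnn1) in the knockout, so 27.3% were called against 28.7% of all genes. The groups of Tnnt3 and of Ttn overlapped. Cnn1 is a smooth muscle gene, so the list is not of striated muscle alone. Of the 11 differences 8 were negative and 3 positive as deposited, against 6 and 5 after quantile normalization. After quantile normalization, and also after cyclic loess, 0 of these markers were lower and 2 higher. The mean of the list was 4.21 to 4.44 in wild type and 4.18 to 4.30 in knockout arrays, and its part in the Ckm difference was not tested.

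Arginine is the amidino donor of the Gatm step and ornithine its by-product. Of 18 measured genes of arginine and ornithine transport and metabolism, 2 rose and 4 fell, so 33.3% were called against 28.7% of all genes, and the list median was -0.12 against -0.04. Cps1, which feeds ammonia into the urea cycle, read 3.98, 4.96, 4.55 and 3.70 in wild type and 9.40, 9.70, 9.73 and 9.67 in knockout arrays. Its rise of 5.33 (SE 0.24, limma adjusted p = 4.14e-06) starts from a wild type mean of 4.30, below the array medians, so its size is rough.

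Oat, the aminotransferase that breaks down ornithine, read 8.71, 8.92, 9.12 and 9.08 in wild type and 9.84, 9.77, 9.88 and 9.75 in knockout arrays. The groups were apart and the gene rose by 0.85 (SE 0.101, limma adjusted p = 0.000408). Azin1, an inhibitor of the antizyme that restrains polyamine synthesis, fell by 0.49 (SE 0.0992) and Agmat, the agmatinase gene, fell by 0.51 (SE 0.0983) at a low level. The arginine transporter genes Slc7a1 (0.19, SE 0.0967) and Slc7a2 (0.26, SE 0.12) and the ornithine decarboxylase gene Odc1 (-0.05, SE 0.0867) did not pass.

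Glycine accepts the amidino group. Of 18 measured genes of glycine and serine synthesis, cleavage and transport, 5 fell and 1 rose. This was 27.8% lower against 12.6% of all genes, and 33.3% called in either direction against 28.7%. After quantile normalization or cyclic loess 4 fell and 1 rose, and after centring on the median 5 fell and 0 rose. Over all 18820 genes, 2379 fell as deposited, 1966 after quantile normalization, 2003 after cyclic loess and 4014 after centring. Shmt2, the mitochondrial hydroxymethyltransferase that makes glycine from serine, read 9.37, 9.49, 8.89 and 9.34 in wild type and 7.78, 8.16, 8.08 and 8.23 in knockout arrays. Every knockout array was below the wild type arrays, and the difference was -1.21 (SE 0.145, limma adjusted p = 0.000437). This was its brightest feature, and the mean of all Shmt2 features differed by -0.81 (SE 0.120, limma adjusted p = 0.00133).

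The glycine transporter gene Slc6a9 fell by 0.55 (SE 0.0880), and Slc36a1, a proton-coupled transporter of small amino acids, fell by 0.42 (SE 0.0815). Slc25a38, a mitochondrial glycine carrier gene, rose by 0.37 (SE 0.0822, limma adjusted p = 0.00939), a call lost after centring each array on its median (adjusted p = 0.0812). The cytosolic isozyme gene Shmt1 (-0.16, SE 0.101) and the glycine cleavage gene Gldc (-0.10, SE 0.0790) did not pass.

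The Gamt step takes a methyl group from S-adenosylmethionine and leaves S-adenosylhomocysteine. Of 18 measured genes of that cycle, 4 rose and 2 fell (33.3% called against 28.7% of all genes, median 0.03). After quantile normalization, centring on the median or cyclic loess, 2 rose and 2 fell. Ahcy, the hydrolase that clears S-adenosylhomocysteine, read 11.78, 11.82, 11.72 and 11.78 in wild type and 11.20, 11.52, 11.08 and 11.09 in knockout arrays. It fell by 0.55 (SE 0.104, limma adjusted p = 0.00456) with no overlap between the groups.

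Cbs, which draws homocysteine into cysteine synthesis, read 11.54, 11.59, 11.38 and 11.58 against 10.67, 10.75, 10.75 and 10.68. Its fall of 0.81 (SE 0.0767, limma adjusted p = 0.000127) was the largest in this list. Slc25a26, the mitochondrial carrier of S-adenosylmethionine, rose by 0.57 (SE 0.11) and Prmt1, an arginine methyltransferase of proteins, by 0.50 (SE 0.101). Gnmt, which like Gamt uses S-adenosylmethionine for a small acceptor (glycine), averaged 10.71 and 10.37 and did not pass (-0.34, SE 0.147, limma adjusted p = 0.111). The adenosylmethionine synthetase gene Mat1a (-0.02, SE 0.196) and the regulatory subunit gene Mat2b (0.27, SE 0.0980) did not pass either. The synthetase gene Mat2a was listed but was not among the measured genes.

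Among 16 measured genes of other ATP buffering, of ATP export from mitochondria and of the energy sensor AMPK, 4 rose and 1 fell, or 31.2% called against 28.7%. Ak1, the cytosolic adenylate kinase, fell by 0.59 (SE 0.077, limma adjusted p = 0.000649), from 6.82, 7.05, 6.89 and 6.92 to 6.32, 6.30, 6.29 and 6.40. Vdac3, a channel of the outer mitochondrial membrane, rose by 0.80 (SE 0.0886, limma adjusted p = 0.000289). The AMPK subunit genes Prkag1 and Prkab1 rose by 0.96 (SE 0.131) and 0.56 (SE 0.104). Averaged over all its features, Prkag1 rose by 0.51 (SE 0.109, limma adjusted p = 0.00777). The ATP/ADP carrier genes Slc25a4 (0.37, SE 0.142) and Slc25a5 (0.06, SE 0.0729) did not pass.

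**Figure D3:**
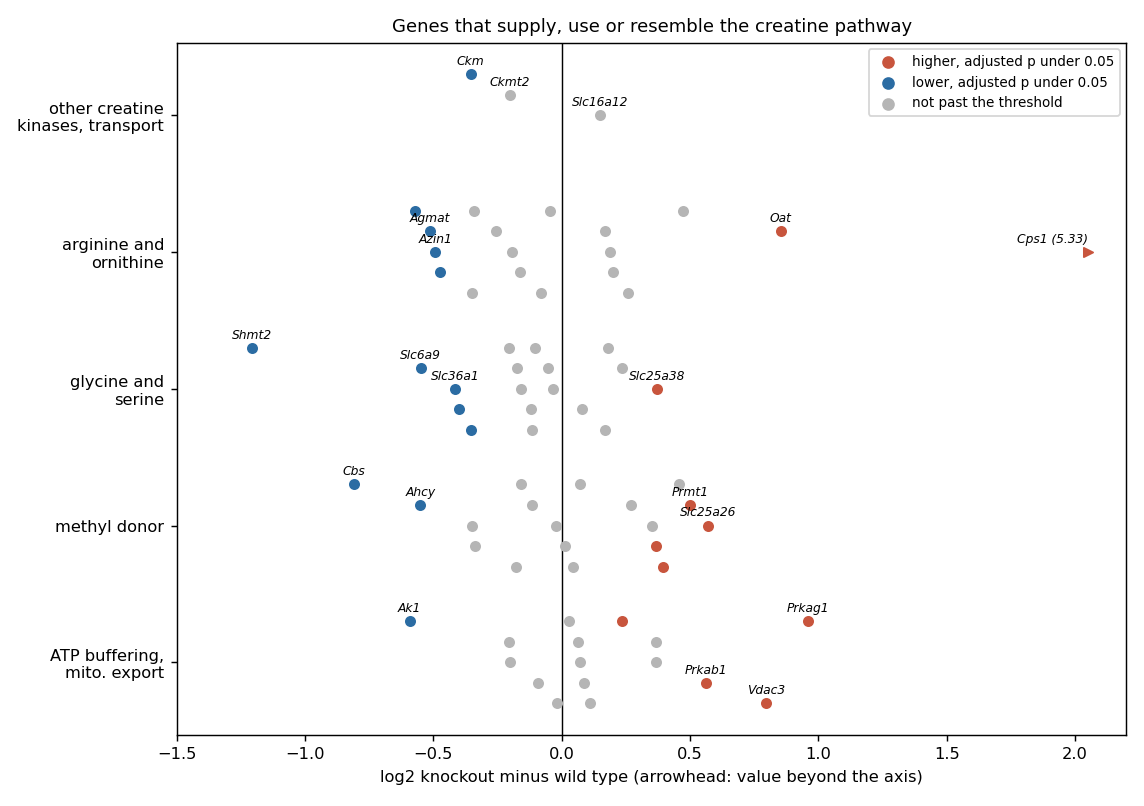
Difference (log2 knockout minus wild type) of each measured gene in 5 lists, 1 point a gene, red where it rose and blue where it fell at an adjusted p under 0.05, grey otherwise; points are spread in height for legibility. Shmt2 lies at -1.21 and Cbs at -0.81, and Cps1, at 5.33, is beyond the axis.

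The genes whose values over the 8 arrays were most like those of Gatm were sought as those with the smallest root mean square difference after each gene was centred on its wild type mean. Of 16482 named genes, Arsb (a lysosomal arylsulfatase) was nearest, at 0.0828 log2 units, followed by Tead2 (a transcription factor), Glb1l2 and Chac2 (a glutathione-degrading enzyme). For Gamt the order was Arsb (0.0816), Chac2, Slc16a6 and Cbfa2t3. Arsb went from 8.64 ± 0.0743 to 7.54 ± 0.0379 (SD, n = 4 each). Gamt was number 7 in the order for Gatm and Gatm number 15 in that for Gamt, with 0.129 between them. Both were chosen for lying lower, so their nearness is a description.

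Markers of the acinar cell, the main cell of the exocrine pancreas, were read beside these values. Of 10 measured acinar markers 6 fell, 0 rose and 4 did not pass, so 60% were lower against 12.6% of all genes, with a median of -0.28 against -0.04. After quantile normalization 2 fell, with a median of -0.09, and after cyclic loess 4 fell. After centring on the median 7 fell, with a median of -0.39 against -0.14 over all genes. Of all 18820 genes, 1966 fell after quantile normalization, 2003 after cyclic loess and 4014 after centring. The list mean was 13.20 to 13.30 in wild type and 12.90 to 12.99 in knockout arrays. The largest fall was that of Pla2g1b, a secreted phospholipase, at -0.80 (SE 0.0731, limma adjusted p = 0.000103), followed by the elastase gene Cela1 (-0.56, SE 0.0746) and the lipase gene Cel (-0.34, SE 0.0733). Ptf1a, a transcription factor that defines acinar cells, averaged 9.02 and 8.88 and did not pass (-0.14, SE 0.125, limma adjusted p = 0.42). The part of this list in the Gatm and Gamt values was not tested. Most of these markers lay close to the array maxima, where signal may no longer follow RNA amount, which was not tested.

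**Figure D4:**
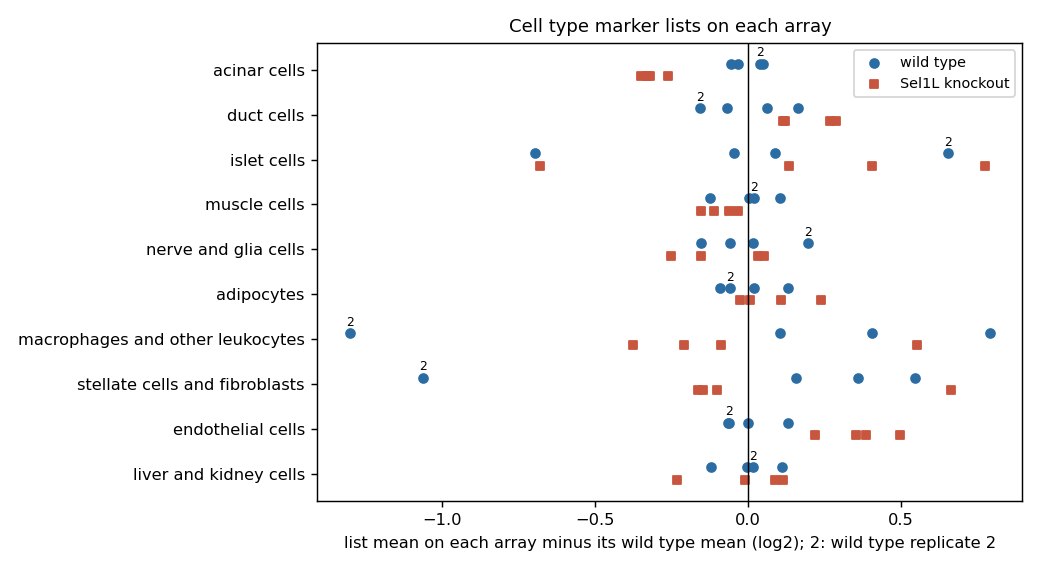
Mean of each marker list on each array minus its mean over the wild type arrays (log2), wild type as circles and knockout as squares, with wild type replicate 2 marked. The acinar list lies lower on all 4 knockout arrays, and wild type replicate 2 lies lowest for the leukocyte and the stellate cell lists.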

How the data were processed

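Expression of 4 wild type and 4 Sel1L knockout pancreas samples was deposited by the authors as log2 values that came from robust multi-array averaging (RMA), as the submitters' processing notes say. The log base rests on their range, and the sources used here do not give the RMA version, chip definition or genome build. Of 35556 features, 21218 had 1 gene symbol in GEO's platform annotation, 1881 several and 12457 none. Only the first were used, and a gene with several features was read by its brightest (18820 genes). Scanner files were not used here, so background and probe-level effects could not be examined. No filter on dim genes was applied.

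Groups were compared with limma 3.58.1 (lmFit, eBayes) in R 4.3.3, with Benjamini-Hochberg adjustment over all genes at 0.05. Differences are knockout minus wild type, with moderated standard errors. The code was tested on simulated data. The members and lists were chosen with earlier results of these data known. Named genes are the members, the other creatine genes, up to 4 called genes with the smallest p per pathway list, up to 3 per marker list and the 4 nearest in pattern; genes given as not past the threshold, and Tnnt3, Ttn, Cnn1 and Ptf1a, were named after their values were seen. Alternatives were 3 other scalings, a filter on dim genes, the mean of all features, another variance model, a replicate block and leaving out each array. Upstream sequences are RefSeq's (GRCm38.p6), present for 4 of the 5 genes. Plots used matplotlib 3.10.9 (Python 3.11.15).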

Additional observations from a re-analysis of the deposited data

Results flagged for a closer look

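In each group of 4 arrays, the lowest or highest value was set against the group's range for the members, Sel1l and the named pathway genes. Of 50 groups checked, 2 held an array apart from the rest, and chance alone sets apart about 1 in 20. Slc6a8 in Sel1L knockout replicate 2 read 6.50, while the other knockout arrays lay between 6.83 and 6.85. Without that array the Slc6a8 difference was 0.41 in place of 0.33. Sel1l in Sel1L knockout replicate 4 read 11.45, while the other knockout arrays lay between 11.66 and 11.70.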

How the results depend on the processing

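No difference of Gatm, Gamt, Slc6a8, Ckb or Ckmt1 changed sign under any of the 15 alternatives; that of Slc16a12, which was not called, did after quantile normalization and cyclic loess. Centring each array on its median put Gamt at -1.17 against -1.06, a move beyond the replicate SD that follows the shift of all genes. Leaving out 1 array gave -1.18 to -1.07 for Gatm, -1.11 to -1.03 for Gamt, 0.19 to 0.41 for Slc6a8, 0.07 to 0.35 for Ckb and 0.41 to 0.71 for Ckmt1. The count of other creatine genes called was 1 on the deposited values, 0 among genes above the median level (where only Slc16a12 was left to test), 0 with the replicate block and 0 to 1 with 1 array left out. Over all genes, leaving out 1 array gave 3721 to 5227 calls, the fewest without Sel1L knockout replicate 3, the replicate block 4678, and the share of higher genes among the calls was 56%, against 49.8% after quantile normalization, 31.8% after centring on the median, 51.3% after cyclic loess and 72.2% among genes above the median level. Same-numbered arrays did not all deviate together (correlations of 0.22, 0.15, -0.27 and -0.02; 1 of 4 wild type arrays correlated best with its own number), so the numbers were not taken as pairs. The number of arrays and the low signal of Ckm and Ckmt2 limit the precision.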

Other observations

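Of 6 endothelial markers 4 rose (66.7% against 16.1% of all genes), Egfl7 by 0.38 (SE 0.0944), Emcn by 0.52 (SE 0.144) and Pecam1 by 0.47 (SE 0.136) being those with the smallest p, and the list mean was 7.34 to 7.54 in wild type and 7.63 to 7.90 in knockout arrays. None of the 6 was called by limma after quantile normalization, after cyclic loess or when Sel1L knockout replicate 3 was left out. Centring on the median left 1 called, as did leaving out Sel1L knockout replicate 4 or wild type replicate 1, and leaving out wild type replicate 2 left 2. The list median was 0.40 as deposited and 0.24 after quantile normalization. Of 9 islet markers (22.2% called against 28.7% of all genes), the pancreatic polypeptide gene Ppy rose by 1.33 (SE 0.444) and the prohormone convertase gene Pcsk1 fell by 1.08 (SE 0.225), while the list mean ranged from 7.43 to 8.78 in wild type and from 7.45 to 8.90 in knockout arrays. The Ppy groups overlapped (limma adjusted p = 0.0487). No islet marker was called higher after quantile normalization, centring on the median or cyclic loess, or with the other variance model. The same held without wild type replicate 1 or 3 or Sel1L knockout replicate 2, 3 or 4. Of 6 duct and 6 adipocyte markers 0 were called by limma, while 2 and 1 had an unadjusted p under 0.05. Of 5 nerve and glia markers Sox10 fell by 0.38 (SE 0.121), all 5 lying below the median gene level. The Sox10 groups overlapped, and no marker of this list was called after quantile normalization, after cyclic loess or with the replicate block. Nor was any called without wild type replicate 1 or 3 or Sel1L knockout replicate 1, 3 or 4. Of 7 liver and kidney markers 28.6% were called, against 28.7% of all genes. The uromodulin gene Umod rose by 1.51 (SE 0.312) and the albumin gene Alb fell by 0.77 (SE 0.212). The Alb groups overlapped, while those of Umod did not. With the replicate block, 0 of these markers were called lower. Dropping array 2 of the wild type group, or array 2 or 4 of the knockout group, likewise left 0 called lower.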
